A study of Homo sapiens with 10 samples.

Results

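The regions described here are the sites that STAT3 gained in transformed ER-Src cells on DNA that already carried AP-1, without NFKB1 beside it. They were chosen from ChIP-seq peak lists. A STAT3 peak of transformed cells on chromosomes 1 to 22 or X was taken when no STAT3 summit of non-transformed cells lay within 300 bp of its summit, when at least 1 of FOS, JUN, and JUNB had a summit within 300 bp in both states, and when no NFKB1 summit of transformed cells lay within 300 bp. This rule found 12353 of the 80265 STAT3 sites of transformed cells, or 15.4% (95% interval 15.1 to 15.6). They are called members below.

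ER-Src cells are MCF-10A, a line of mammary epithelial cells, with an inducible v-Src: the kinase is joined to the hormone-binding part of the estrogen receptor, and tamoxifen switches it on and transforms the cells. All 10 samples come from this single line, so every non-transformed sample carries the fusion protein too. The labels give ethanol as the vehicle for the non-transformed cells and 1 μM 4-hydroxytamoxifen for 12 h for the transformed cells. Inside the lists, the library names carry 36 h on the ethanol side and 12 h on the tamoxifen side. Each of the 5 proteins (STAT3, NFKB1, JUN, JUNB, and FOS) has 1 library per state, so no value below has a replicate check and no difference was tested. The libraries held 4837474 to 22082403 reads after filtering. The STAT3 library had 10929003 filtered reads before and 8967267 after transformation, so the gained sites were listed in the shallower library of the pair. Unfiltered, these libraries held 20488488 and 11637618 reads, so filtering removed more on the non-transformed side. Their fragment lengths were 150 and 119 bp. JUNB kept 9178601 of 18317168 reads in non-transformed cells and 15750765 of 22858649 in transformed cells. The part of these differences in the gained sites was not tested. The replicate letter in the library names differs between the states for STAT3 and also for JUNB.

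STAT3 is a transcription factor that is activated by tyrosine phosphorylation, classically downstream of interleukin-6 family cytokines, and Src is among the kinases that activate it. AP-1 is a dimer of basic leucine zipper proteins. FOS binds DNA only as a partner of a JUN protein, whereas JUN and JUNB can pair with FOS proteins or with each other. NFKB1 is a subunit of NF-κB, a transcription factor of the inflammatory response. The antibody used for STAT3 has the catalogue number that the study's antibody list gives for the tyrosine-phosphorylated form. A peak list records where a library passed the caller's threshold. The absence of a summit is therefore not the absence of the protein, and a pileup from many cells cannot tell more cells with a bound site from more binding per cell.

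The steps of the rule show how the members stand among the STAT3 sites. Of the 80265 sites, 49456 had no STAT3 summit in non-transformed cells, and 31049 of those had AP-1 there already. AP-1 was still listed in transformed cells at 30183 of them. Of these, 17830 had NFKB1 within the window, and the 12353 members make up the remaining 40.9% (95% interval 40.4 to 41.5). The classes used for comparison are the 17830 sites gained at AP-1 with NFKB1, 4698 sites where STAT3 was listed in both states at AP-1 of both states without NFKB1, and 6836 sites gained without NFKB1 and without AP-1 in either state.

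STAT3 was weak at most members. The median fold enrichment over the local background was 6.45 (95% interval 6.45 to 6.45), with quartiles at 5.11 and 8.60 and a highest value of 53.9, and the median pileup at the summit was 8 reads. Median fold enrichment was 7.88 at the sites gained with NFKB1, 8.77 at the AP-1 sites with STAT3 in both states, and 5.70 at the sites gained away from AP-1. In this single library the median of the members therefore stood between those of the gained sites with NFKB1 and those without AP-1. At 99.5% of the members the STAT3 pileup per 1000000 filtered reads, called normalised pileup below, was at or above that of the weakest peak in the list of non-transformed cells (0.458), and at 46.6% it reached the median of that list (0.915). The weakest STAT3 peak of transformed cells itself stood at 0.446, so the first share was nearly fixed in advance. Only 1118 members (9.05%, 95% interval 8.55 to 9.57) had a normalised STAT3 pileup of at least 2.

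The rule asks for at least 1 AP-1 protein in each state, but not for how many or which. Before transformation, 45.0% of the members had 1 of the 3 proteins, 31.8% had 2, and 23.3% (95% interval 22.5 to 24.0) had all 3. In transformed cells, 15.1% had 1, 22.1% had 2, and 62.8% (95% interval 61.9 to 63.6) had all 3. Over all 80265 STAT3 sites, AP-1 absent or present, 37.3% had all 3 before and 60.6% after, so the members were below that share before transformation and close to it afterwards. The share with all 3 moved from 51.6% to 84.8% at the sites gained with NFKB1 and from 32.1% to 58.5% at the AP-1 sites with STAT3 in both states. Of these classes at AP-1, the members thus had the fewest proteins before transformation, and they passed the class with STAT3 in both states afterwards. Depth moved in the same direction, since the libraries of transformed cells held 1.19 (FOS), 1.16 (JUN), and 1.72 times (JUNB) the filtered reads of their partners. With every list kept only from a normalised pileup of 0.827 upward, an alternative chosen after seeing the data, 7492 sites met the rule, and the share with all 3 proteins was 16.5% before and 57.0% after.

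**Figure D1:**
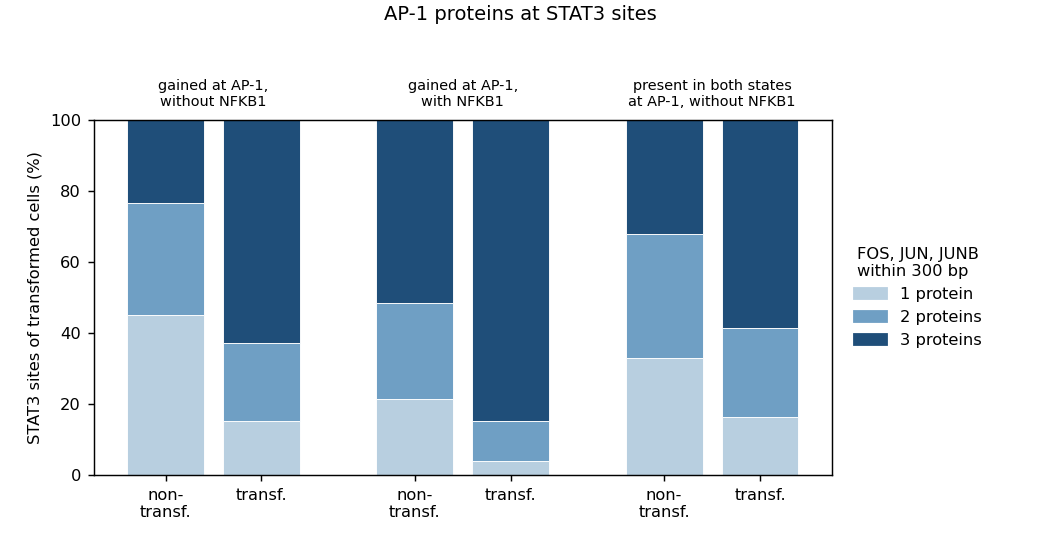
Stacked bars give the percentage of STAT3 sites of transformed cells with 1, 2, or 3 of FOS, JUN, and JUNB within 300 bp, for 3 classes of sites and both states. At the members the share with 3 proteins was 23.3% in non-transformed and 62.8% in transformed cells.

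FOS was the protein most often listed beforehand. Its list of non-transformed cells was also the longest, with 119754 peaks against 81444 for JUN and 75249 for JUNB. The weakest peaks of these lists had normalised pileups of 0.269, 0.315, and 0.436. The part of list length in the order of the proteins was not tested. It was listed at 88.2% of the members in non-transformed cells and 92.9% in transformed cells, and at 10440 members (84.5%) in both states. JUN was listed at 42.1% before and 81.8% after, and JUNB at 48.0% before and 72.9% after. JUN was therefore the protein most often new: 5363 members (43.4%, 95% interval 42.5 to 44.3) had it only in transformed cells, against 3694 (29.9%) for JUNB and 1037 (8.40%) for FOS. FOS was also the most frequent AP-1 protein before transformation at the sites gained with NFKB1 (92.6%) and at the AP-1 sites with STAT3 in both states (87.9%). Over all STAT3 sites, FOS was listed at 67.7% before and 82.5% after, JUN at 53.0% and 74.7%, and JUNB at 47.0% and 66.4%. JUN at the members was thus below its share over all sites before transformation and above it afterwards. The share over all sites includes sites without AP-1, which the rule leaves out, so the later difference is partly set by the rule. At the sites gained with NFKB1, JUN was listed at 71.55% before and 96.0% after. At the AP-1 sites with STAT3 in both states it was listed at 63.6% and 89.3%, so the members had the lowest JUN shares of these classes at AP-1. Losses were rarer, with 453 members losing JUN, 617 losing JUNB, and 454 losing FOS.

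By combination, the most frequent starting point was FOS alone, at 4222 members (34.2%), followed by all 3 proteins at 2873 and FOS with JUNB at 2531 (20.5%). FOS alone means that no JUN or JUNB summit was listed, in lists shorter than that of FOS. Other AP-1 proteins were not profiled. Of the members with FOS alone, 49.6% had all 3 proteins in transformed cells and 16.5% still had FOS alone. The members that began with FOS and JUNB had all 3 in 79.1% of cases, and those that began with all 3 kept them in 92.0%. Across all members, the number of AP-1 proteins was higher in transformed cells at 6817 (55.2%), equal at 4948 (40.1%), and lower at 588 (4.76%). Every protein listed before was listed again at 10913 members (88.3%), so change was mostly addition. Addition was not particular to the members, since the share with all 3 proteins rose from 37.3% to 60.6% over all STAT3 sites. At the sites gained with NFKB1 it rose from 51.6% to 84.8%. No protein was shared between the states at 623 (5.04%), where the rule was met by different AP-1 proteins before and after.

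The newly listed AP-1 peaks were weaker than those present in both states. Where JUN was new, its median normalised pileup in transformed cells was 0.650, against 0.867 where it was listed in both states. The same pair of values was 0.762 and 1.21 for JUNB and 0.589 and 1.13 for FOS. Nearly all new JUN peaks (99.9%) lay at or above the weakest peak of the JUN list of non-transformed cells, and 48.8% reached the median of that list. The first share was nearly fixed in advance, since the weakest JUN peaks stood at 0.271 in transformed and 0.315 in non-transformed cells. For JUNB, 21.6% reached the median of the earlier list.

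JUN and JUNB were also newly listed beside FOS where STAT3 was absent, and a comparison that starts from FOS gives this background. Of 99959 FOS sites listed in both states, 10554 had STAT3 only in transformed cells and no NFKB1, and 35442 had STAT3 in neither state and no NFKB1. JUN was listed at 38.0% of the former before transformation and at 82.7% after, and at 22.2% and then 58.4% of the latter. JUNB went from 50.5% to 79.2% where STAT3 was gained and from 43.7% to 57.4% where it was absent. The FOS sites that gained STAT3 were somewhat higher in FOS to begin with, at a median of 0.859 against 0.752 in normalised pileup. Within the lowest quartile group of FOS level in non-transformed cells, JUN was listed in transformed cells at 69.5% (95% interval 67.9 to 71.0) of the sites that gained STAT3 and at 42.5% (41.7 to 43.3) of those without it. The same sites had JUN at 20.0% and 13.2% before. In the highest quartile group JUN was listed at 79.6% and 67.7% before and at 98.4% and 95.1% after, close to the most a share can reach.

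AP-1 levels were compared at members where a protein was listed in both states, as the log2 ratio of normalised pileup, transformed over non-transformed. A site was called higher or lower when this changed by 1.5 fold. FOS could be compared at 10440 members. Its median normalised pileup was 0.859 before and 1.13 after, and the median log2 ratio was 0.17 (95% interval 0.14 to 0.17), against −0.094 over all 99959 FOS sites of both states. FOS was higher at 3067 members (29.4%), where 18.3% of all FOS sites were higher, and lower at 1425 (13.7%), where 21.1% of all were lower. The AP-1 sites with STAT3 in both states went the other way, with a median log2 ratio of −0.25. The sites gained with NFKB1 had 0.22, with FOS higher at 32.6% and lower at 9.695%, so the rise was not particular to the members. FOS at the members thus stood above its own background in these libraries. With every list kept from the common threshold, the median log2 ratio of FOS turned to −0.0090 at the members, beside −0.16 over all FOS sites of both states. The sign of the FOS ratio therefore rests on the threshold, and its place above the background held at both. The background was not matched on FOS level before transformation, where its median was 1.02. In the lowest quartile group of that level, FOS sites that gained STAT3 without NFKB1 went from a median of 0.537 to 0.770. All FOS sites of that group went from 0.537 to 0.589. In the highest group both medians fell, from 2.58 to 1.95 and from 2.95 to 2.40, so FOS was not seen above its background there.

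JUN and JUNB levels at the members followed their backgrounds. JUN could be compared at 4744 members (38.4%), with a median log2 ratio of 0.37 (95% interval 0.37 to 0.42) at the members and 0.37 over all 64622 JUN sites. It was higher at 1783 (37.6%), beside 35.8% of all JUN sites, and lower at 236 (4.97%), beside 5.37%. JUNB could be compared at 5313 members (43.0%), with a median log2 ratio of −0.042 at the members and −0.063 over all JUNB sites. JUNB was higher at 1014 (19.1%), where 18.5% of all JUNB sites were, and lower at 1105 (20.8%), where 21.5% of all were. The sign for JUNB depends on the scale, since the log2 ratio of fold enrichment had a median of 0.34 at the members and 0.34 over all sites. On that scale FOS had 0.28 at the members and 0.044 over all sites. AP-1 sites with neither STAT3 nor NFKB1 had lower medians than the members for each protein, at −0.15 for FOS, 0.10 for JUN, and −0.36 for JUNB on the pileup scale.

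**Figure D2:**
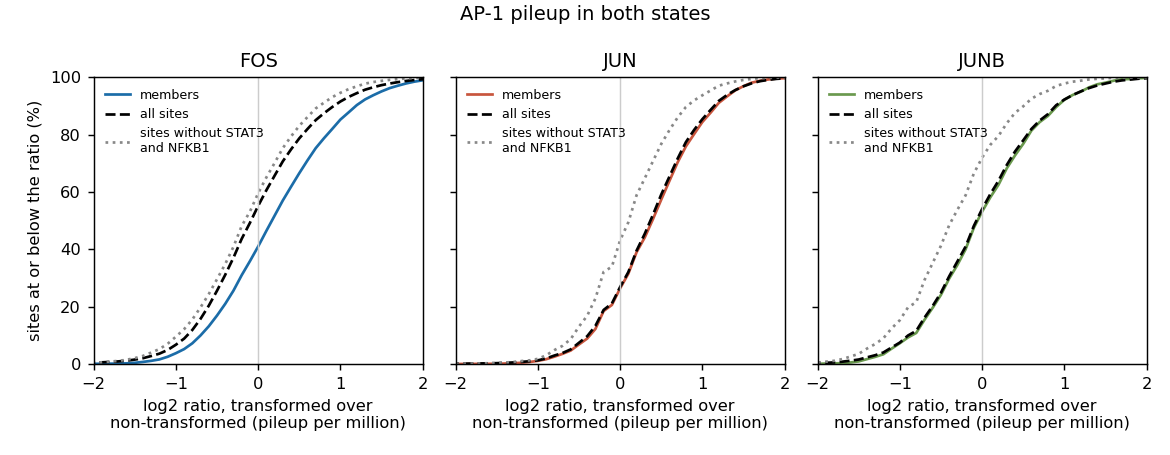
Each line is the cumulative percentage of sites at or below a log2 ratio of normalised pileup, transformed over non-transformed, for members, all sites of that protein listed in both states, and sites without STAT3 and NFKB1. The FOS curve of the members lies to the right of that of all sites (medians 0.17 and −0.094), and the JUN and JUNB curves of members and all sites nearly coincide.

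The strength of STAT3 went with AP-1 in transformed cells and much less with AP-1 before. Members were divided into quartile groups by their STAT3 −log10 q-value, a division chosen after seeing the data. From the weakest to the strongest quartile group, the share with all 3 AP-1 proteins in transformed cells was 54.6%, 58.9%, 65.3%, and 72.3%. The same share in non-transformed cells was 21.2%, 23.6%, 24.6%, and 23.6%, nearly level. Median STAT3 fold enrichment was 6.44, 6.45, and 6.45 at members with 1, 2, and 3 AP-1 proteins before transformation, and 5.73, 5.95, and 6.45 at those with 1, 2, and 3 after it.

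The change in AP-1 level followed the same order. The median log2 ratio of FOS was 0.017, 0.059, 0.14, and 0.44 (95% interval 0.40 to 0.49) from the weakest to the strongest STAT3 quartile group. For JUN it was 0.28, 0.37, 0.40, and 0.54, and for JUNB −0.19, −0.13, −0.027, and 0.14. In the strongest quartile group FOS was higher at 42.0% of the members that could be compared, against 23.0% in the weakest. The other classes showed the same order: at sites gained with NFKB1 the FOS medians were 0.064 in the weakest and 0.56 in the strongest quartile group of that class, and at AP-1 sites with STAT3 in both states −0.45 and 0.053. Among the 1118 members with a normalised STAT3 pileup of at least 2, the median log2 ratios were 0.68 for FOS, 0.64 for JUN, and 0.22 for JUNB.

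**Figure D3:**
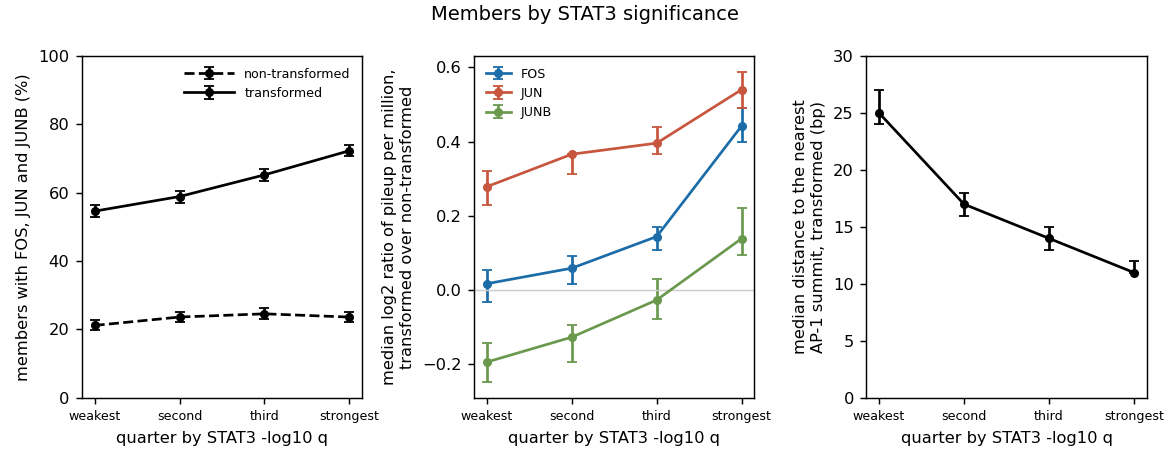
Members are divided into quartile groups by STAT3 −log10 q-value. The left panel gives the percentage with FOS, JUN, and JUNB in each state, the middle panel the median log2 ratio of normalised pileup, and the right panel the median distance to the nearest AP-1 summit in bp, with bars for 95% intervals (counting error only). The share with 3 proteins was 54.6% in the weakest and 72.3% in the strongest quartile group in transformed cells, and between 21.2% and 24.6% in non-transformed cells.

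The gained STAT3 summits lay close to the AP-1 summits, well inside the 300 bp that the rule allows. In transformed cells the median distance from the STAT3 summit was 26 bp to FOS, 29 bp to JUN, 28 bp to JUNB, and 16 bp (95% interval 15 to 16) to the nearest of them, and 81.8% of the members had an AP-1 summit within 50 bp. The AP-1 summits of non-transformed cells marked nearly the same place: the median distances were 29 bp for FOS, 36 bp for JUN, and 31 bp for JUNB, and the nearest was 23 bp away. AP-1 itself kept its position between states, with a median shift of 16 bp for FOS, 26 bp for JUN, and 20 bp for JUNB at members with the protein in both. The distance to the nearest AP-1 summit was 25 bp in the weakest STAT3 quartile group and 11 bp in the strongest.

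At the 7755 members with all 3 AP-1 proteins in transformed cells, STAT3, FOS, JUN, and JUNB summits together spanned a median of 45 bp (95% interval 44 to 46), and 57.0% had all 4 summits within 50 bp. The protein nearest to STAT3 was FOS at 32.4%, JUN at 32.6%, and JUNB at 31.2%, with ties at the other 3.82%. No single AP-1 protein was thus the usual nearest neighbour. The distances were alike in the other classes, with a nearest AP-1 summit at 13 bp for the sites gained with NFKB1 and 16 bp for AP-1 sites with STAT3 in both states.

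**Figure D4:**
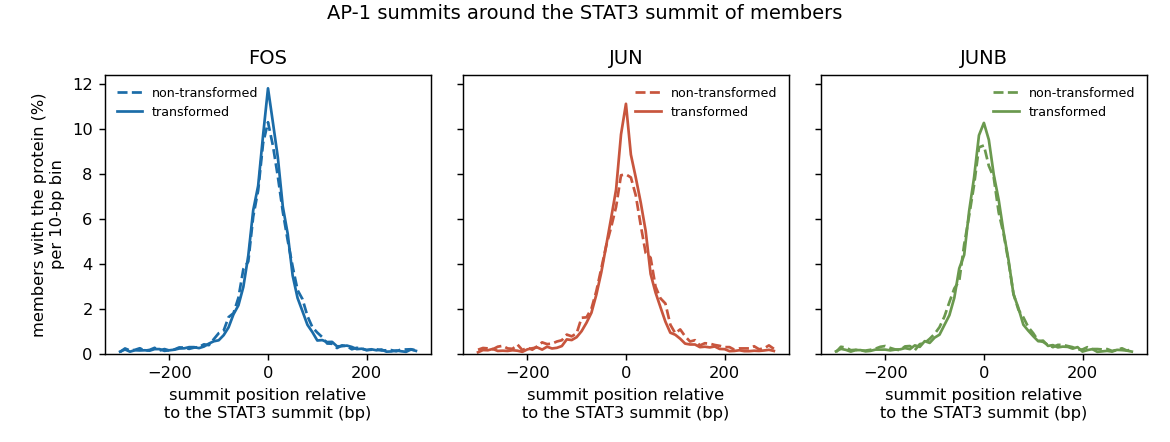
Lines give the percentage of members with a listed summit of FOS, JUN, or JUNB in each 10-bp bin around the STAT3 summit, for non-transformed (dashed) and transformed cells (solid). Summits of every protein and state peak at the STAT3 summit, with median distances of 26 to 36 bp.

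The member with the most significant STAT3 summit was chr4:38372957-38373634 (coordinates as in the lists, hg19 in the submitters' processing notes). STAT3 had 75 pileup reads there, 53.9 times the local background. FOS had 12 reads before and 47 after, or 0.645 and 2.13 in normalised pileup, whereas JUN (14 reads) and JUNB (23 reads) were listed only in transformed cells. The nearest STAT3 summit of non-transformed cells was 11381 bp away. At chr7:26304770-26305108, the fourth by significance, all 3 AP-1 proteins were listed in both states. FOS went from 16 to 81 reads, JUN from 9 to 27, and JUNB from 6 to 47, and its mean log2 ratio over the 3 proteins, 1.88, was also the highest among the members with all 3 in both states. STAT3 had 63 reads there, at 43.7-fold enrichment.

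Among the 10 strongest members, FOS was listed in both states at 8 and was higher in transformed cells at all 8. JUN was new at 8 and JUNB at 4, and the 5 regions with JUNB in both states all had more of it in transformed cells. At chr11:113385581-113385886, FOS moved from 22 to 62 reads, JUN and JUNB were new with 24 and 37 reads, and all 4 summits of transformed cells lay within 7 bp. At chr6:98571902-98572439, FOS moved from 12 to 63 reads and JUNB from 11 to 36, with 21 reads of new JUN. The other 6 members of the 10 had STAT3 fold enrichments between 38.7 and 52.0. Only the region on chromosome 7 had JUN, JUNB, and FOS all listed before transformation. These regions were ranked on STAT3 alone, and their AP-1 values are single values from single libraries.

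Some of the strongest members stood at the edge of the rule. At chr21:35173987-35174866, with 79 STAT3 reads and 52.0-fold enrichment, JUN was the sole AP-1 protein, with 7 reads before and 17 after, and summits of STAT3 in non-transformed cells and of NFKB1 in transformed cells both lay 401 bp away. At chr16:10964826-10965910, with 55 STAT3 reads, the AP-1 summits of transformed cells lay 272 to 290 bp from that of STAT3, and an NFKB1 summit lay at 346 bp. Both are long peaks, of 880 and 1085 bp. A region on chromosome 8, the fifth by significance with 65 STAT3 reads, had an NFKB1 summit of transformed cells still closer, at 342 bp.

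**Figure D5:**
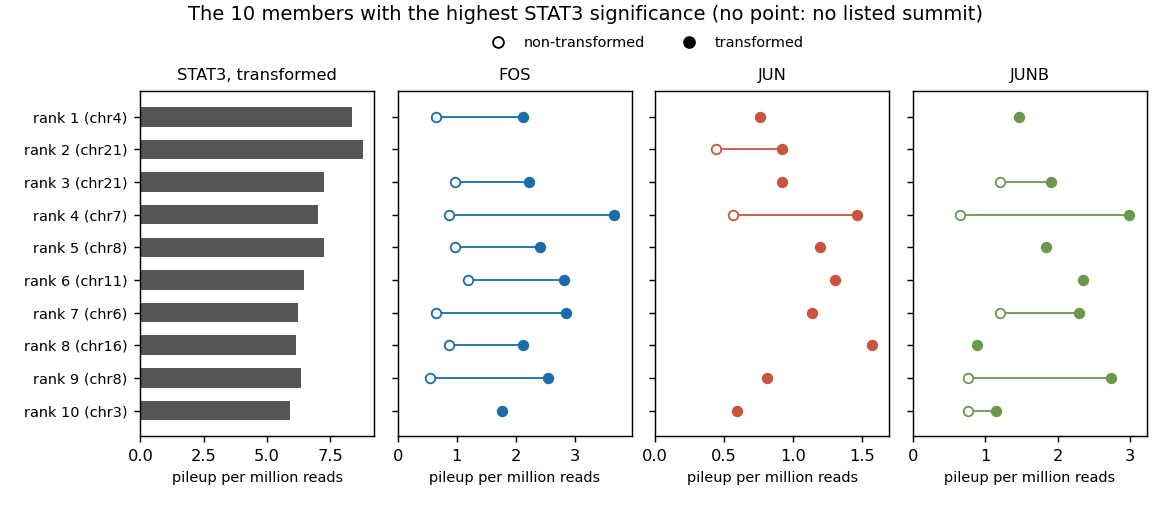
Normalised pileup (per 1000000 filtered reads) at the 10 members with the highest STAT3 significance, for STAT3 in transformed cells (bars) and for FOS, JUN, and JUNB in non-transformed (open points) and transformed cells (filled points). Wherever a protein was listed in both states, the filled point lies to the right of the open one, as for FOS at rank 1 (0.645 and 2.13).

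The members with all 4 summits closest together were not the strongest. At chr3:49256180-49256298, where they spanned 2 bp, STAT3 had 8 reads and 6.45-fold enrichment, FOS had 34 reads before and 24 after, JUNB 20 and 15, and JUN 11 and 20. The 4 next regions each spanned 3 bp. Among them, chr11:91129429-91129942 had 31 STAT3 reads, and chr5:148156423-148156562 had 10 STAT3 reads on strong AP-1, with 96 and 72 reads of FOS, 27 and 42 of JUN, and 46 and 56 of JUNB.

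At the other end, the 5 members with the lowest STAT3 significance each had 4 STAT3 reads and fold enrichments between 3.12 and 3.19. At chr3:149375805-149375923, FOS was listed only before (11 reads) and JUN only after (9 reads). At chr13:106808245-106808363, the AP-1 summits lay 291 to 300 bp away and those of STAT3 in non-transformed cells and NFKB1 in transformed cells 303 and 306 bp away, so this region met the rule by a few bases.

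AP-1 moved in both directions among the 2644 members (21.4%) with all 3 proteins in both states. The mean log2 ratio over the 3 proteins had a median of 0.10 (95% interval 0.079 to 0.12) and ran from −1.36 to 1.88. All 3 ratios were above 0 at 602 of these members (22.8%) and below 0 at 193 (7.30%), whatever their size. Over all 28697 STAT3 sites with the 3 proteins in both states these shares were 25.8% and 5.85%, close to those of the members. With fold enrichment in place of normalised pileup, an alternative chosen after seeing the data, they were 35.97% and 2.87% at the members and 38.0% and 1.99% over all such sites, so the balance depends on the scale. After the region on chromosome 7, the highest ratios were at chr5:118746850-118747503 (mean log2 ratio 1.79), where FOS moved from 23 to 93 reads, JUN from 15 to 53, and JUNB from 10 to 68, and at chr2:47416878-47416996 (1.65), where STAT3 had 7 reads. The lowest ratios were at chr5:157841971-157842089 (−1.36), chr5:129877633-129877838 (−1.20), and chr10:89605124-89605283 (−1.02), and STAT3 had 6, 8, and 6 reads there. In the first of these FOS had 58 reads before and 26 after, JUN 19 and 10, and JUNB 17 and 10, so STAT3 was listed as gained at a site where AP-1 was lower.

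NFKB1 was nearly absent from the members before transformation as well. The rule did not use that list, but it left out sites with NFKB1 in both states, so the low share is partly set by the rule. Over all STAT3 sites of transformed cells the share was 12.4%. An NFKB1 summit of non-transformed cells lay within 300 bp at 108 members (0.874%, 95% interval 0.718 to 1.06), compared with 11.3% of the sites gained with NFKB1, 6.05% of the AP-1 sites with STAT3 in both states, and 0.293% of the sites gained away from AP-1 without NFKB1. The NFKB1 library of non-transformed cells held 4837474 reads, the fewest of the 10, and its weakest listed peak had a normalised pileup of 0.827, so weaker binding was not detectable there. NFKB1 sites of transformed cells were still close on the scale of a locus: the nearest was a median of 7889 bp from a member, and 55.1% of the members had one within 10 kb.

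Most members had no other member within 10 kb, although 67.9% had one within 100 kb. The nearest STAT3 summit of non-transformed cells was a median of 15016 bp away, against 11014 bp for the sites gained with NFKB1. Such a summit lay within 10 kb of 41.4% of the members and within 100 kb of 91.7%. Another member lay within 1 kb of 5.46% of them and within 10 kb of 18.8%, while 61.0% had any other STAT3 site of transformed cells within 10 kb, compared with 69.7% of the sites gained with NFKB1. Grouping members no more than 10 kb apart left 10026 of them single. The largest groups held 5 members each, at chr11:56673583-56685369 and chr17:64661232-64680560. Members made up 13.3% (chromosome 1) to 17.9% (chromosome 16) of the STAT3 sites of the autosomes and 20.6% (95% interval 18.8 to 22.4) of those of chromosome X.

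Sites on both sides of each limit of the rule had similar STAT3 levels but differed in AP-1. Members whose nearest STAT3 summit of non-transformed cells was 301 to 400 bp away numbered 234, with a median fold enrichment of 5.96, and the 226 sites left out by such a summit at 200 to 300 bp had 5.87. For NFKB1 of transformed cells these values were 6.16 in 415 members and 6.37 in 568 sites left out. For AP-1 of non-transformed cells, 415 members with the nearest summit at 200 to 300 bp and 398 sites left out at 301 to 400 bp both had 5.73. The share with all 3 AP-1 proteins in transformed cells was 32.1% inside and 46.9% outside the STAT3 limit, and 38.8% inside and 69.4% outside the NFKB1 limit. It was 29.9% inside and 9.55% outside the AP-1 limit. This last difference is largely set by the rule. Members must have AP-1 within 300 bp in transformed cells too, and AP-1 summits moved little between the states. By whole peaks instead of summits, 63 member peaks overlapped a STAT3 peak of non-transformed cells and 162 an NFKB1 peak of transformed cells, and 195 (1.58%) overlapped either.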

How the data were processed

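ChIP-seq of 5 proteins was analysed from 10 deposited peak lists, 1 per protein and state. Peak calling by the authors was done library by library with MACS 2.0.10.20131216, from 36-bp reads, with no control, duplicates reduced to 1 read, and a cutoff of 0.05 on the q-value. The submitters' processing notes name Bowtie, MACS2, and hg19. In the deposited lists the pileup is a signal (extended reads over the summit, not scaled), the fold enrichment is a ratio to the local background, and significance is given as −log10 of the p-value and q-value by the authors' caller.

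Summits were matched within 300 bp on chromosomes 1 to 22 and X, and pileups were scaled to 1000000 of the filtered reads in the file headers (normalised pileup). Where several summits lay in the window, the nearest was used. Shares have exact Clopper-Pearson 95% intervals and medians have order-statistic 95% intervals, which cover counting error only, and neighbouring sites are not independent. Named regions are the 10 members with the highest and the 5 with the lowest STAT3 −log10 q, the 5 with the smallest span of the 4 summits among members with all 3 AP-1 proteins in both states, and the 3 highest and 3 lowest mean log2 ratios among those. Not every region of this rule is described. The members, classes, and rules were chosen with earlier results of these data known. Python 3.11.15, numpy 2.4.6, pandas 2.3.3, and scipy 1.17.1 were used, and the matching was tested on simulated data. The reference at hand was GRCh38, and 36 members end past its chromosome ends, so genes, motifs, and sequences were not used here. The alternatives were other windows, whole peaks, stricter thresholds, other scalings, and the choices named in the closing section.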

Additional observations from a re-analysis of the deposited data

How the results depend on the processing

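Each protein has 1 library per state, so leaving out a replicate left no value, and no paired analysis was possible because no group holds more than 1 sample. The alternatives that need gene starts or motifs were not run, since the reference was of another build. The number of members was between 11738 and 12590 under windows of 150 and 500 bp, whole peaks, a −log10 q of at least 5, and AP-1 from FOS and JUN only. Taking 1 summit per deposited peak changed no value. The part of depth in the shares and the cause of the other shifts were not tested.

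With a window of 150 bp the share of members with all 3 AP-1 proteins in transformed cells was 61.7%, and that with NFKB1 in non-transformed cells 1.06%. With 500 bp, 64.4% had all 3 in transformed and 24.0% in non-transformed cells. By overlap of whole peaks, 63.9% had all 3 in transformed cells and 0.623% had NFKB1 in non-transformed cells. With only peaks of −log10 q of at least 5, the shares with all 3 were 67.6% and 24.1% (non-transformed), the share with NFKB1 was 0.588%, the median STAT3 fold enrichment was 7.61, the median distance to AP-1 was 13 bp, and the FOS log2 ratio was 0.13.

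Only STAT3 peaks with a normalised pileup of at least 2 left 1118 members, with a fold enrichment of 16.0, a distance of 10 bp, shares with all 3 proteins of 76.0% and 22.5% (non-transformed), NFKB1 at 0.447%, and log2 ratios of 0.68 (FOS), 0.64 (JUN), and 0.22 (JUNB, reversed). The next 2 alternatives were chosen after seeing the data. With AP-1 from FOS and JUN only, 64.1% and 24.2% (non-transformed) had all 3. With every list kept from a common normalised pileup of 0.827, 7492 members were found, with a fold enrichment of 8.46, a distance of 13 bp, shares with all 3 of 57.0% and 16.5% (non-transformed), NFKB1 at 1.56%, and log2 ratios of −0.0090 (FOS, reversed), 0.42 (JUN), and 0.035 (JUNB, reversed).

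Scaling moved the log2 ratios. Unscaled pileup gave 0.42 (FOS), 0.59 (JUN), and 0.74 (JUNB, reversed). Fold enrichment gave 0.28, 0.49, and 0.34 (JUNB, reversed). Centred on all sites of each protein, they were 0.26, 0, and 0.021 (JUNB, reversed).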

Other observations

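Outside the chromosomes used above, the STAT3 list of transformed cells held 39 sites on chromosome Y, of which 3 met the same rule, with fold enrichments between 4.30 and 7.17. These had 9, 7, and 5 STAT3 reads, and whether the peaks listed on chromosome Y mark binding was not tested. None of the 11 sites on the mitochondrial genome met it.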
